A study of Mus musculus with 22 samples.

Results

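Expression of 38 genes of the glutathione, thioredoxin and NRF2 antioxidant system was examined in the cortex and hippocampus of Ts1Cje mice and wild-type (WT) littermates. The genes were a fixed list matched by Entrez gene number, and all 38 were measured among 20768 named genes on the arrays. Ts1Cje mice are a model of Down syndrome that carries an additional copy of the distal part of mouse chromosome 16, in all tissues and under the genes' own promoters. The line arose in cells targeted at Sod1, so the extra segment is held to begin at that gene, whose added copy carries the insertion and is held to give no active enzyme. The segment sits on chromosome 12, with a short loss there. The groups were Ts1Cje cortex (n = 6), Ts1Cje hippocampus (n = 6), WT cortex (n = 5) and WT hippocampus (n = 5). Every animal was a female of 8 to 10 weeks with no labelled treatment, from Ts1Cje males crossed over several generations to C57Bl/6J females, and each of the 11 animals gave 1 array per region. None of the 38 genes lies in the triplicated segment. Hmox2 and Txnrd2 are on chromosome 16, but ahead of Sod1. The comparison therefore asks whether genes present in the normal copy number responded to the extra segment.

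NRF2 is a transcription factor that the adaptor KEAP1 holds at a low level by directing it to degradation. Oxidants and electrophiles modify KEAP1, NRF2 accumulates, and it binds antioxidant response elements with small MAF proteins to raise the genes for glutathione synthesis, quinone reduction and the thioredoxin system. Glutathione peroxidases and peroxiredoxins remove peroxides, and the glutathione and thioredoxin reductases restore their electron donors. In brain, astrocytes are known for higher activity of this pathway than neurons.

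The letters of the response element were looked up in the genes' start regions, because this element is what links the genes to NRF2. The motif TGACNNNGC, the core of the antioxidant response element with N for any base, was searched on both strands of RefSeq windows of 300 bases (250 before to 50 after a gene's start, GRCm38.p6). Windows were found for 32 of the 38 genes, and 9 of them (28.1%) held the motif, against 3781 of 27025 genes (13.99%) with a window in the whole table. Hmox1, Gclc, Gsr, Gsta4, Prdx6 and Msra had none in the table used. Of the 9 genes, 8 had the motif upstream of the start, and these matches are shown with 10 bases on either side, 5′ to 3′ on the gene's strand. Capitals mark the motif, which reads in the gene's direction in Nfe2l2, Gstm5, Gstm7 and Sesn2 and in the other direction in Gclm, Prdx1, Mgst1 and Txnrd1. A match is a stretch of letters, not a measured binding site.
Nfe2l2, chr2:75704885-75704913, minus strand: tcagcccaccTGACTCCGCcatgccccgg
Gstm5, chr3:107895802-107895830, plus strand: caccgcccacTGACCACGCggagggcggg
Gstm7, chr3:107931725-107931753, minus strand: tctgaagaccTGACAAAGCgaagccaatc
Gclm, chr3:122245413-122245441, plus strand: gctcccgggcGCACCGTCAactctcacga
Prdx1, chr4:116685456-116685484, plus strand: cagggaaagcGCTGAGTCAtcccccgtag
Sesn2, chr4:132510474-132510502, minus strand: cgcagcgggcTGACAGAGCcgggcgagcg
Mgst1, chr6:138140461-138140489, plus strand: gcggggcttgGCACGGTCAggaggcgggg
Txnrd1, chr10:82859104-82859132, plus strand: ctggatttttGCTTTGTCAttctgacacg

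Values were log2 signals made with RMA, and a signal of 1 gene is not comparable with that of another. Array medians were 7.53 to 7.62 for cortex and 6.91 to 6.95 for hippocampus. Some values repeat exactly between arrays: 7 of the 38 genes had 1 value in at least 3 cortex arrays, and 10 in at least 3 hippocampus arrays. The 73 measured genes of the segment stood 0.24 to 0.37 log2 above the other WT arrays in Ts1Cje cortex and 0.25 to 0.34 above them in Ts1Cje hippocampus. WT cortex arrays stood at -0.02 to 0.03 and WT hippocampus arrays at -0.01 to 0.03. Each array thus matched its genotype label. Both arrays of Ts1Cje animal 64 and of WT animal 60 stood apart in both regions. Their median correlation with the other cortex arrays, taken across genes, was 0.976 and 0.967, against 0.996 to 0.997 for the other 9. In hippocampus it was 0.985 and 0.991, against 0.995 to 0.996. The labels of animal 60 also disagree on its number. Without both animals the genotype difference changed sign for 7 of the 38 genes in cortex and for 12 in hippocampus, and values without them stand beside several results.

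None of the 38 genes was called different between genotypes in either region. In limma fits with adjustment over all 20768 genes, 0 of the 38 passed an adjusted p of 0.05 in cortex, where 1 gene of the whole array passed (0.00482%). In hippocampus 0 of 38 passed, where 23 genes of the array did (0.111%). The lowest adjusted p among the 38 was 1 in both regions. At an unadjusted p under 0.05 the counts were 0 of 38 in cortex and 1 of 38 in hippocampus, against 1.29% and 3.7% of all genes. No gene of the 38 had Ts1Cje and WT groups that did not overlap, a pattern shown by 0.299% of all genes in cortex and 0.631% in hippocampus. Limma with array weights, with a trend and a robust prior, and without animals 60 and 64 likewise called 0 of the 38 in each region.

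**Figure D1:**
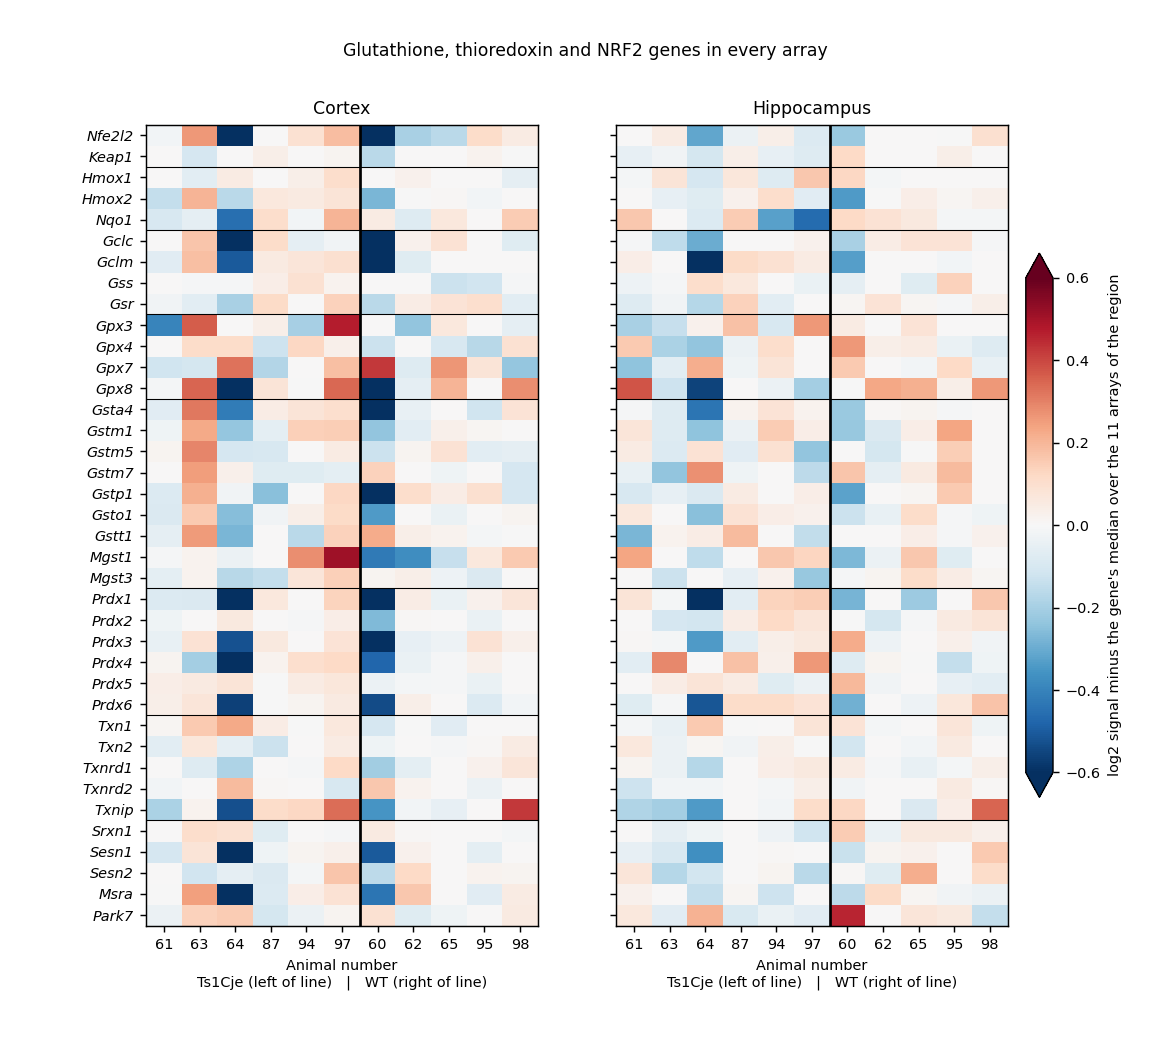
Log2 signal of each of the 38 genes (rows, grouped by role) in each array (columns, Ts1Cje left of the line and WT right of it), shown as the difference from the gene's median over the 11 arrays of the region. The columns of animals 64 and 60 hold most of the dark blue cells in cortex, and no row separates the genotypes.

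The intervals give the size of difference that these arrays leave possible. In cortex the limma 95% interval of 37 of the 38 genes lay inside a 1.5-fold change in either direction (0.585 on the log2 scale). The exception was Nfe2l2, whose interval reached 0.607, a fold of 1.52. In hippocampus all 38 intervals lay inside 1.5-fold. Inside 1.25-fold (0.322 on the log2 scale) lay 23 of 38 intervals in cortex and 35 of 38 in hippocampus. Each interval is for its gene alone and is not widened for the 38 looked at together. The median standard error over the 38 genes was 0.0919 in cortex and 0.0737 in hippocampus.

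**Figure D2:**
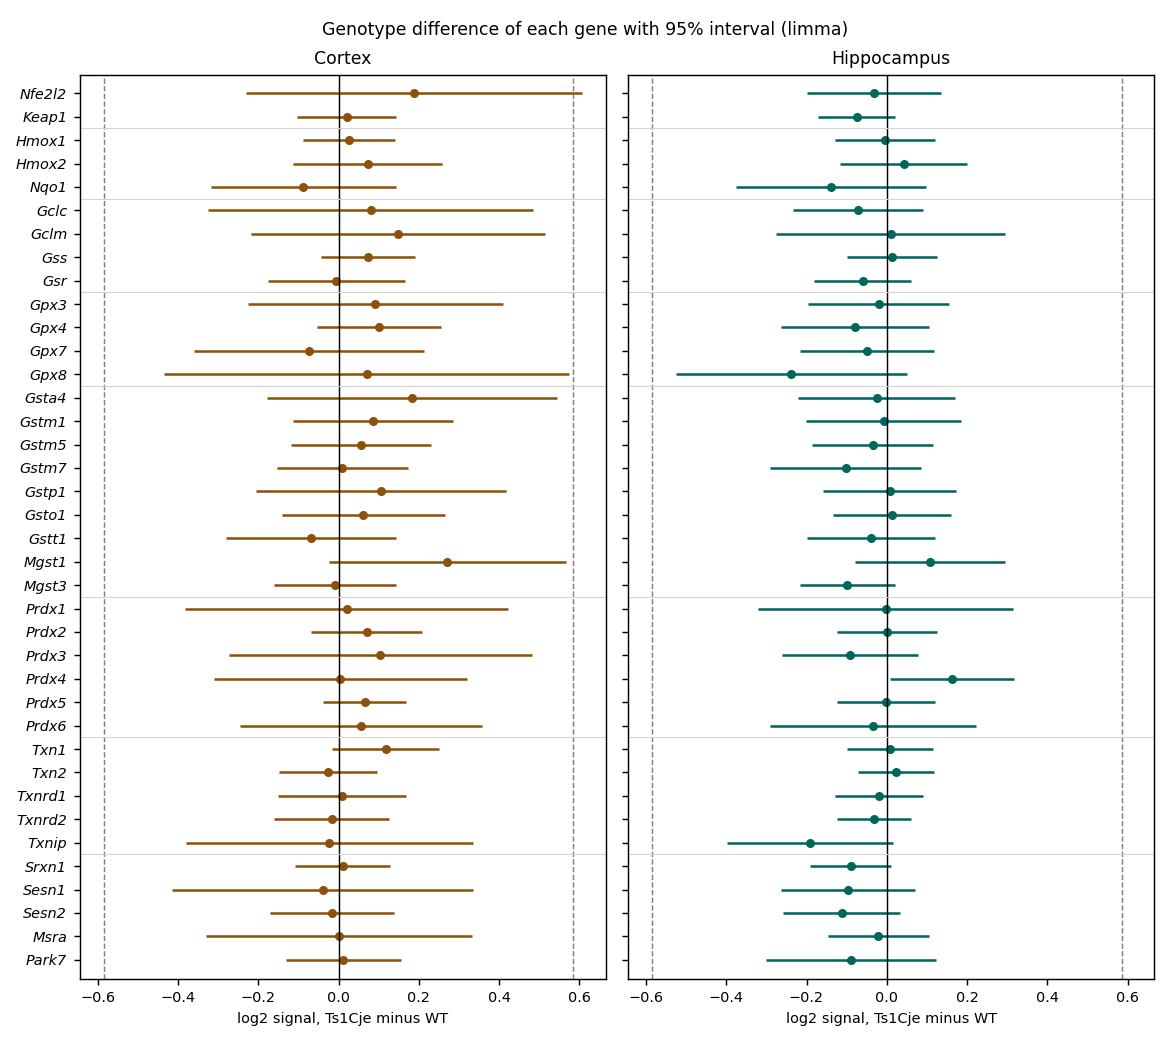
Difference of log2 signal, Ts1Cje minus WT, with its 95% interval from limma for each gene (rows, in the order of the roles) in cortex and hippocampus. Broken lines mark 1.5-fold in either direction, and 37 of 38 cortex intervals and 38 of 38 hippocampus intervals lie between them.

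Nfe2l2, which encodes NRF2, had the widest upper bound. In Ts1Cje cortex its log2 signal ran from 8.26 to 9.15 with a median of 8.94, and in WT cortex it was 8.05, 8.70, 8.72, 9.00 and 8.94. The lowest value of each genotype was the array of animal 64 or 60, and the groups overlapped. The difference was 0.19 ± 0.191 (SE) and moved between 0.03 without animal 60 and 0.31 without animal 64. In hippocampus Nfe2l2 averaged 8.196 ± 0.134 in Ts1Cje (SD, n = 6) and 8.23 ± 0.119 in WT (SD, n = 5), a difference of -0.03 ± 0.0763 (SE). Keap1, the adaptor that marks NRF2 for degradation, had a cortex signal of 8.45 to 8.59 in Ts1Cje (median 8.55), against 8.39, 8.55, 8.55, 8.57 and 8.55 in WT. Its cortex difference was 0.02 ± 0.0562 (SE) and turned to -0.01 without animals 60 and 64. In hippocampus Keap1 ran from 7.57 to 7.71 in Ts1Cje (median 7.63), and the WT arrays read 7.80, 7.68, 7.68, 7.71 and 7.68. In that region 5 of the 6 Ts1Cje values lay below every WT value, and the difference was -0.08 ± 0.0442 (SE, limma unadjusted p = 0.115).

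The classic NRF2 targets did not separate the genotypes. Hmox1, the inducible heme oxygenase, averaged 7.001 ± 0.0577 in Ts1Cje cortex and 6.97 ± 0.0303 in WT cortex, and 6.34 ± 0.101 in Ts1Cje hippocampus and 6.35 ± 0.0579 in WT hippocampus (SD, n = 6 and 5). Hmox2, the constitutive heme oxygenase, differed by 0.07 ± 0.0846 in cortex and 0.04 ± 0.0722 in hippocampus (SE). Nqo1, a quinone reductase commonly read as an NRF2 marker, was dim in cortex, with a mean under the log2 signal of 6.49 used to mark dim genes there. Its log2 signal ran from 5.85 to 6.51 in Ts1Cje cortex (median 6.27), and was 6.35, 6.23, 6.37, 6.30 and 6.46 in WT cortex. In hippocampus Nqo1 ran from 5.76 to 6.39 in Ts1Cje (median 6.18), against 6.34, 6.31, 6.28, 6.21 and 6.21 in WT. The Ts1Cje hippocampus values spread on both sides of the WT values, with animals 94 and 97 the lowest. The difference was -0.09 ± 0.105 (SE) in cortex, where it was -0.01 without animals 60 and 64, and -0.14 ± 0.108 (SE) in hippocampus, where it was -0.07 without animal 97.

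Both glutamate-cysteine ligase genes, of the first step of glutathione synthesis, had the lowest value of each genotype in animals 64 and 60. Gclm, the modifier subunit of glutamate-cysteine ligase and one of the genes with the motif shown above, had log2 signals of 9.66 to 10.34 in Ts1Cje cortex (median 10.23), against 9.36, 10.09, 10.16, 10.16 and 10.17 in WT cortex. The value of 9.66 was animal 64 and that of 9.36 was animal 60. The difference of 0.15 ± 0.167 (SE) became 0.08 without both animals and -0.01 without animal 60 alone. In hippocampus Gclm averaged 9.24 ± 0.292 in Ts1Cje (SD, n = 6) and 9.24 ± 0.146 in WT (SD, n = 5). Gclc, the catalytic subunit of the same enzyme, differed by 0.08 ± 0.185 in cortex and -0.07 ± 0.0742 in hippocampus (SE), and its cortex value was -0.09 without animal 60. The hippocampus value of Gclc was -0.12 without animal 60 and -0.03 without animal 64. Gss, which completes glutathione synthesis, had 7.50 to 7.60 in Ts1Cje cortex (median 7.52), against 7.51, 7.51, 7.38, 7.39 and 7.50 in WT cortex. The WT arrays of animals 65 and 95 were the lowest, and the difference was 0.07 ± 0.0538 (SE, limma unadjusted p = 0.202). Gsr, which regenerates glutathione, differed by -0.01 ± 0.0778 in cortex and -0.06 ± 0.0551 in hippocampus (SE).

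**Figure D3:**
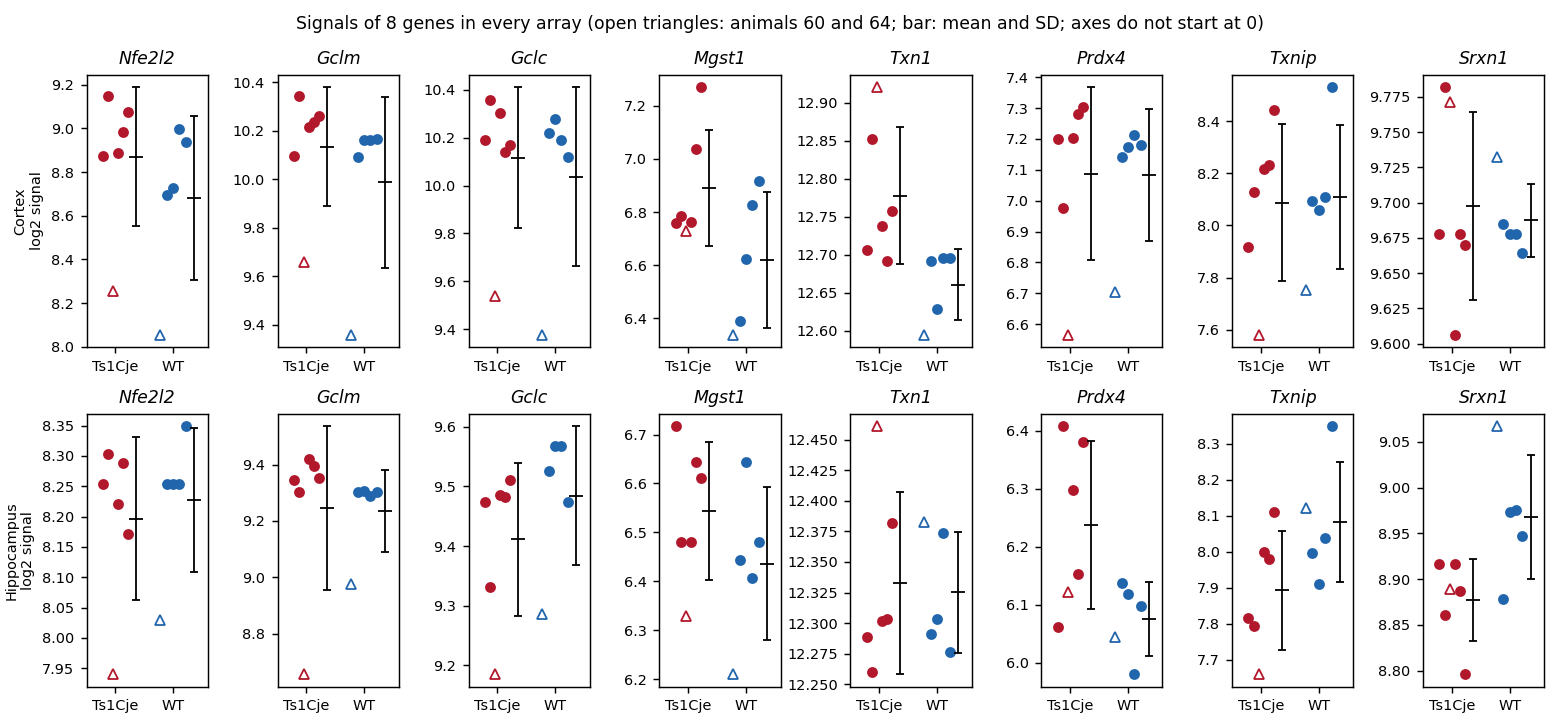
Log2 signal of 8 genes in every array of cortex (top) and hippocampus (bottom), Ts1Cje in red and WT in blue, with the group mean and SD. Open triangles are animals 64 and 60, which give the lowest Nfe2l2, Gclm and Gclc value of their genotype in both regions, and the genotypes overlap in every panel.

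Among the glutathione peroxidases, Gpx4, which reduces lipid peroxides, had cortex signals of 7.53 to 7.78 in Ts1Cje (median 7.73), against 7.53, 7.66, 7.56, 7.49 and 7.75 in WT. Its difference was 0.10 ± 0.0705 in cortex and -0.08 ± 0.0847 in hippocampus (SE), where it was 0.02 without animals 60 and 64. Gpx8, a peroxidase of the endoplasmic reticulum, ran from 8.00 to 8.93 in Ts1Cje hippocampus (median 8.48), and was 8.56, 8.79, 8.77, 8.59 and 8.82 in WT hippocampus. Animal 64 was the lowest and animal 61 the highest of all 11 hippocampus arrays, both of them Ts1Cje. The difference of -0.24 ± 0.132 (SE, limma unadjusted p = 0.0956) was -0.15 without animal 64. In the same region 10 of 12 choroid plexus markers and 8 of 8 ependymal markers were also lower in Ts1Cje, with medians of -0.22 and -0.11. Of the choroid plexus markers, Clic6 and Kcne2 lie in the triplicated segment. Other lists had a lower mean signal too, such as fibroblasts and meninges (8.040 in Ts1Cje, 8.137 in WT) and hippocampal neurons (8.955 and 9.060). The oligodendrocyte list (10.354 and 10.307) and the general neuron list (11.107 and 11.075) were higher in Ts1Cje. The mean signal of the choroid plexus list ran from 8.10 to 8.95 in Ts1Cje hippocampus and from 8.30 to 8.82 in WT hippocampus, and the part of these cells in the Gpx8 value was not tested. In whole tissue, fewer cells of a type and less RNA per cell cannot be told apart. Gpx3, the secreted form, and Gpx7, another form of the endoplasmic reticulum that was dim in both regions, had cortex differences of 0.09 and -0.07 and hippocampus differences of -0.02 and -0.05.

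Among the 9 glutathione S-transferases, which join glutathione to electrophiles, 7 were above 0 in cortex and 3 in hippocampus. Mgst1, a microsomal transferase with the motif shown above, had the lowest p of the 38 genes in cortex. Its log2 signal there was 6.73 to 7.27 in Ts1Cje (median 6.77), against 6.34, 6.39, 6.62, 6.83 and 6.92 in WT. The Ts1Cje arrays of animals 97 and 94 were the highest, and the WT arrays of animals 95 and 98 lay above 4 of the 6 Ts1Cje values. The cortex difference was 0.27 ± 0.135 (SE, 95% interval -0.03 to 0.57, limma unadjusted p = 0.069), and it ran from 0.19 to 0.35 as each animal was left out. In hippocampus Mgst1 differed by 0.11 ± 0.0856 (SE), and in the mean of both regions by 0.19 ± 0.0946 (SE, limma unadjusted p = 0.0702). Mgst3, a related microsomal enzyme, ran from 8.18 to 8.43 in Ts1Cje hippocampus (median 8.38), and was 8.40, 8.42, 8.52, 8.45 and 8.42 in WT hippocampus. Of the Ts1Cje arrays, 3 lay below every WT array, and the difference was -0.10 ± 0.0547 (SE, limma unadjusted p = 0.099). The differences of Gsta4, Gstm1, Gstm5, Gstm7, Gstp1, Gsto1 and Gstt1 ran from -0.07 (Gstt1) to 0.18 (Gsta4) in cortex and from -0.10 (Gstm7) to 0.01 (Gsto1) in hippocampus.

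The peroxiredoxins include the 1 gene with an unadjusted p under 0.05. Prdx4, the peroxiredoxin of the endoplasmic reticulum, had log2 signals of 6.06 to 6.41 in Ts1Cje hippocampus (median 6.23), against 6.04, 6.14, 6.12, 5.98 and 6.10 in WT hippocampus. Of the Ts1Cje arrays, 4 lay above every WT array, and 2 lay among them. The difference was 0.16 ± 0.0708 (SE, 95% interval 0.01 to 0.32), with a limma unadjusted p of 0.0422 and an adjusted p of 1. In cortex Prdx4 differed by 0.00 ± 0.143 (SE). Prdx5, found in mitochondria, peroxisomes and cytosol, had 10.93 to 11.004 in Ts1Cje cortex (median 10.98), against 10.89, 10.92, 10.92, 10.89 and 10.93 in WT cortex. Here 5 of 6 Ts1Cje arrays lay above every WT array, by a difference of 0.07 ± 0.0473 (SE), which in hippocampus was 0.00 ± 0.056. Prdx2, a cytosolic form, had 10.33 to 10.42 in Ts1Cje cortex (median 10.36), and the WT arrays read 10.09, 10.36, 10.36, 10.32 and 10.36. The low WT value was animal 60, and the difference of 0.07 ± 0.063 (SE) was 0.01 without animals 60 and 64. Prdx1 and Prdx6, of the cytosol, differed by 0.02 and 0.06 in cortex, and the mitochondrial Prdx3 by 0.10. In hippocampus these differences were 0.00 for Prdx1, -0.03 for Prdx6 and -0.09 for Prdx3.

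In the thioredoxin system, Txn1, the cytosolic thioredoxin, had log2 signals of 12.69 to 12.92 in Ts1Cje cortex (median 12.75), against 12.59, 12.69, 12.63, 12.70 and 12.70 in WT cortex. Of the Ts1Cje arrays, 5 lay above every WT array, with animal 64 the highest. The difference was 0.12 ± 0.0606 (SE, limma unadjusted p = 0.0784) in cortex, 0.07 there without animals 60 and 64, and 0.01 ± 0.0493 (SE) in hippocampus. Txnip, which binds and inhibits thioredoxin and follows glucose supply, ran from 7.66 to 8.11 in Ts1Cje hippocampus (median 7.90), and was 8.12, 8.00, 7.91, 8.04 and 8.35 in WT hippocampus. The lowest 3 values were Ts1Cje arrays and the highest 2 were WT arrays, with a difference of -0.19 ± 0.0945 (SE, limma unadjusted p = 0.067) that was -0.12 without animal 98. The cortex difference of Txnip was -0.02 ± 0.163 (SE). Txnrd1, the cytosolic thioredoxin reductase, averaged 8.57 ± 0.1 in Ts1Cje cortex and 8.57 ± 0.11 in WT cortex (SD, n = 6 and 5). Its hippocampus difference was -0.02 ± 0.05 (SE). Txn2 and Txnrd2, the mitochondrial pair, had cortex differences of -0.03 and -0.02 and hippocampus differences of 0.02 and -0.03.

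Among the repair and stress genes, Srxn1, which restores overoxidised peroxiredoxins, had 8.80 to 8.92 in Ts1Cje hippocampus (median 8.89), against 9.07, 8.88, 8.97, 8.98 and 8.95 in WT hippocampus. All Ts1Cje values lay below 4 of the 5 WT values, and the WT array of animal 62 lay among them. The difference was -0.09 ± 0.0463 (SE, limma unadjusted p = 0.0749) in hippocampus and 0.01 ± 0.0538 (SE) in cortex. Sesn1 and Sesn2, the stress-inducible sestrins, had cortex differences of -0.04 and -0.02 and hippocampus differences of -0.10 and -0.11. Msra, which reduces oxidised methionine, differed by 0.00 and -0.02 in cortex and hippocampus. Park7, an oxidation sensor linked to Parkinson disease, differed by 0.01 in cortex and -0.09 in hippocampus.

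Taken as a list, the 38 genes leaned up in cortex and down in hippocampus by small amounts. In cortex 28 of 38 differences were above 0 (73.7%) with a median of 0.04, against 48.6% and a median of 0.00 over all genes. In hippocampus 10 of 38 were above 0 (26.3%) with a median of -0.03, against 46.3% and -0.01 over all genes. The cortex lean moved with the array of animal 60, which was the lowest of the 11 cortex arrays for 18 of the 38 genes. Without that animal 18 of 38 were above 0 with a median of 0.00, without animal 64 the median was 0.08, and without both 27 of 38 were above 0 with a median of 0.03. In hippocampus animal 64 was the lowest array for 18 of the 38 genes, and without both animals 12 of 38 were above 0 with a median of -0.02. Without animal 60 alone 6 of 38 were above 0 there (median -0.05), and without animal 64 alone 15 of 38 (median -0.02). The mean over the 38 genes was 9.08 ± 0.12 in Ts1Cje cortex and 9.03 ± 0.12 in WT cortex (SD, n = 6 and 5). In hippocampus it was 8.53 ± 0.0618 in Ts1Cje and 8.57 ± 0.0263 in WT (SD, n = 6 and 5). In cortex the genotypes differed by less than either SD, and in hippocampus by less than the Ts1Cje SD but more than the WT SD. Marker genes of other cells also leaned. No marker was called in the striatal neuron, red blood cell, oligodendrocyte, microglia and astrocyte lists. In cortex 10 of 10 striatal neuron markers were above 0 with a median of 0.17 (mean signals of 10.32 to 10.56 in Ts1Cje and 9.87 to 10.57 in WT), as were 5 of 6 red blood cell markers with a median of 0.20 (7.28 to 7.94 in Ts1Cje and 6.88 to 7.57 in WT). Of the oligodendrocyte markers 10 of 11 were above 0 (median 0.09) and of the microglia markers 9 of 12 (median 0.09). Without animals 60 and 64 the medians were 0.14 for striatal neurons, 0.07 for red blood cells, 0.05 for oligodendrocytes and 0.08 for microglia. Endothelial markers went the same way in cortex without both, with 10 of 12 above 0 (median 0.06). Astrocyte markers went the other way, with 3 of 12 above 0 (median -0.03). In hippocampus 10 of 12 astrocyte markers were below 0 with a median of -0.07 (9.85 to 10.00 in Ts1Cje and 9.96 to 10.01 in WT). Without animals 60 and 64, the hippocampus counts above 0 were 2 of 12 for astrocytes (median -0.05) and 1 of 12 for hippocampal neurons (median -0.08). They were 2 of 10 for pericytes and vascular smooth muscle (median -0.13) and 2 of 8 for fibroblasts and meninges (median -0.14). Oligodendrocyte markers went the other way there, with 10 of 11 above 0 (median 0.05). The part of any of these cells in the lean was not tested.

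The genes with and without a match to the motif in their window were set side by side. An element outside the window would not be counted. Of the 9 genes with a motif, 8 were above 0 in cortex (median 0.02) and 2 in hippocampus (median -0.03). Of the 23 genes whose window held none, 15 were above 0 in cortex (median 0.06) and 8 in hippocampus (median -0.03). The 6 genes without a window had 5 above 0 in cortex (median 0.04) and 0 in hippocampus (median -0.03). Without animal 60 the 9 genes with a motif had 5 above 0 in cortex and 1 in hippocampus, and without animal 64 they had 7 and 5.

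The mean of each animal's regions also called 0 of the 38 genes, while 11 genes of the whole array were called (0.053%). Here 21 of 38 differences were above 0 with a median of 0.01, against 47.1% of all genes. Without animal 60 the count was 10 of 38 with a median of -0.02, and without animal 64 it was 26 with a median of 0.03. Of the 38, 0 had an unadjusted p under 0.05 by limma, against 1.7% of all genes. After Mgst1, the lowest p belonged to Nqo1 at -0.11 ± 0.0684 (SE, limma unadjusted p = 0.122). Whether the genotype effect differed by region was also tested, and 0 of 38 genes and 0 of all genes were called (0%), with 0 of 38 and 1.27% at an unadjusted limma p under 0.05. The effect in hippocampus minus that in cortex was above 0 for 4 of the 38 genes, with a median of -0.09, against 46.6% and a median of -0.01 over all genes. The lowest p belonged to Gpx4 at -0.18, Srxn1 at -0.10 and Txn1 at -0.11, with unadjusted limma p of 0.116, 0.131 and 0.146. Without animal 60 the Gpx4 value was -0.11.

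Related genes outside the 38 were compared to place these values. Sod1, which turns superoxide into the hydrogen peroxide that peroxiredoxins and glutathione peroxidases remove, rose in Ts1Cje hippocampus. Its log2 signal there ran from 11.76 to 12.12 in Ts1Cje (median 11.83), against 11.52, 10.97, 11.06, 11.03 and 11.04 in WT, with no overlap. The difference was 0.74 ± 0.101 (SE, limma adjusted p = 0.0217), and 0.79 without animals 60 and 64 (limma adjusted p = 1.11e-05). The direction held without any 1 animal (0.69 to 0.84), but the call was lost without any 1 of animals 61, 62, 63, 65, 87, 94, 95, 97 and 98, with limma adjusted p of 0.0524 to 0.0996. In cortex Sod1 ran from 12.04 to 12.57 in Ts1Cje (median 12.13), and was 12.18, 11.28, 11.49, 11.50 and 11.40 in WT. The WT value of 12.18 was animal 60, and it lay within the Ts1Cje range. The cortex difference of 0.62 ± 0.155 (SE) had an adjusted p of 1 by limma, and without animals 60 and 64 it was 0.70 with an adjusted p of 0.00059. With all 22 arrays in 1 fit and a random replicate block for animals, its limma adjusted p was 0.031. The probes cannot tell the added copy from the others. Sod2 and Sod3, the mitochondrial and secreted dismutases, had cortex differences of -0.04 and 0.11 and hippocampus differences of -0.03 and -0.04.

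Of the 21 other NRF2 target and pentose phosphate genes, 0 were called in either region, and 15 were above 0 in cortex (median 0.09) and 9 in hippocampus (median -0.04). Without animal 60 the cortex count was 11 with a median of 0.01. The highest were the carbonyl reductases Cbr1 and Cbr3, which lie in the triplicated segment. Cbr1 had 9.40 to 10.10 in Ts1Cje cortex (median 9.73), against 8.83, 9.29, 9.36, 9.36 and 9.37 in WT cortex, with no overlap. Its difference was 0.48 ± 0.132 in cortex (SE, limma adjusted p = 1) and 0.31 ± 0.0791 in hippocampus (SE, adjusted p = 0.593). Cbr3 differed by 0.38 ± 0.102 in cortex and 0.10 ± 0.0848 in hippocampus (SE), the hippocampus value being 0.19 without animals 60 and 64. Among targets outside the segment, Slc7a11, which imports cystine for glutathione synthesis, had a cortex difference of -0.05 and a hippocampus difference of -0.11. G6pdx, which supplies NADPH, had 0.13 and -0.08, and catalase (Cat) 0.12 and 0.00.

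Of 14 partners and regulators of NRF2, 0 were called, and 12 were above 0 in cortex (median 0.02) and 3 in hippocampus (median -0.03). Without animals 60 and 64 these counts were 7 and 5. Bach1, a repressor that competes with NRF2 at the response element, lies on chromosome 16 ahead of Sod1. It differed by 0.14 ± 0.133 in cortex and -0.05 ± 0.0619 in hippocampus (SE), and its cortex value was -0.05 without animals 60 and 64. Nfe2l3, a related factor, had the lowest p of the list in cortex at 0.09 ± 0.0626 (SE, limma unadjusted p = 0.181). Of 32 other glutathione and glutaredoxin genes, 0 were called, with 20 above 0 in cortex (median 0.03) and 14 in hippocampus (median 0.00), the hippocampus count being 18 (median 0.01) without both animals. Gstt3, a transferase, read 5.83 to 5.99 in Ts1Cje hippocampus (median 5.85), against 6.20, 5.96, 6.16, 6.06 and 6.17 in WT. The difference was -0.24 ± 0.055 (SE, limma unadjusted p = 0.00112, adjusted p = 0.455). The Ts1Cje hippocampus mean of Gstt3 was 5.874, near the log2 signal of 5.873 used to mark dim genes in that region. In cortex Gstt3 averaged 6.483 in Ts1Cje and 6.506 in WT. Of 23 other thioredoxin family genes, 0 were called, with 21 above 0 in cortex (median 0.05) and 9 in hippocampus (median -0.02). Without animal 60 the cortex count was 8 with a median of -0.02, and without animal 64 the hippocampus count was 15 with a median of 0.01. Msrb1, a selenium-containing methionine sulfoxide reductase, averaged 8.63 ± 0.196 in Ts1Cje cortex and 8.34 ± 0.172 in WT cortex, and 8.15 ± 0.108 in Ts1Cje hippocampus and 7.89 ± 0.204 in WT hippocampus (SD, n = 6 and 5). Its differences of 0.29 ± 0.11 and 0.26 ± 0.0909 (SE) had unadjusted limma p of 0.0217 and 0.0149, and an adjusted p of 1 in both regions.

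**Figure D4:**
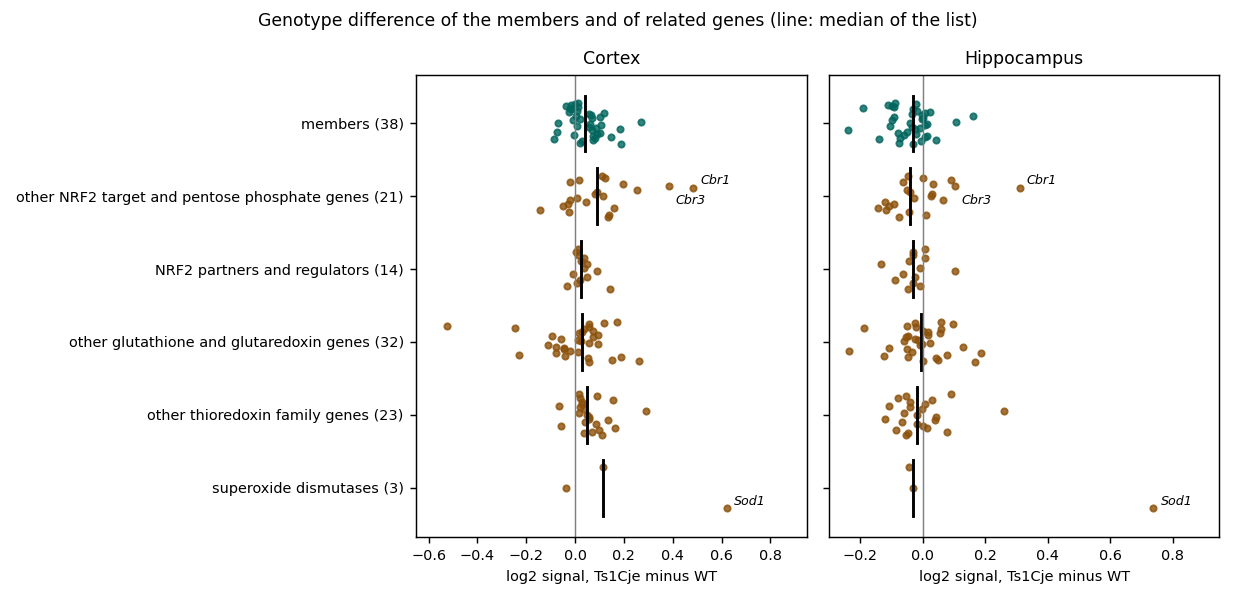
Difference of log2 signal, Ts1Cje minus WT, of the 38 genes (green) and of 5 lists of related genes (brown) in cortex and hippocampus, with the median of each list as a line; the panels differ in their x range. The 3 labelled genes, Sod1, Cbr1 and Cbr3, lie at or in the triplicated segment, and Sod1 in hippocampus is the point at 0.74.

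Region differences were called for most of the 38 genes, although their size and even their sign depend on how the arrays are scaled. On arrays centred on their median, 24 of the 38 genes differed between hippocampus and cortex in limma (63.2%, against 41.6% of all genes). Of these, 17 were higher in hippocampus and 7 lower, against 20.4% and 21.2% of all genes. The sign was the same in all 11 animals for 18 genes (47.4%, against 26% of all genes). On the deposited scale 0 were called higher and 33 lower. The median of all genes was itself -0.63 there, with 533 of 20768 genes above 0. With quantile normalization 18 were higher and 5 lower. The share of all genes called as deposited and with quantile normalization is not given here, so those counts are not read as particular to the 38 genes. The regions were extracted with different RNA kits and may have been normalized apart, so that region and processing cannot be told apart.

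Lower in hippocampus on all 3 scalings, with centred values given here, were Mgst3, Gstt1, Gpx3, Keap1 and Txnrd2. Mgst3 averaged 1.46 above the array median in hippocampus and 2.03 above it in cortex, a difference of -0.57 ± 0.0403 (SE, limma adjusted p = 1.78e-10) that ran from -0.87 to -0.41 within animals. Gstt1, a transferase with activity toward small halogenated compounds, differed by -0.45 ± 0.0579 (SE), and Gpx3 by -0.31 ± 0.0814. Both were lower in hippocampus in 11 of 11 animals. Keap1 differed by -0.23 ± 0.0354 and Txnrd2 by -0.19 ± 0.0367 (SE), each lower in 10 of 11 animals. No gene was called higher on all 3 scalings. The deposited scale left little room for such a call, as the median of all genes was -0.63 there. The rule of 3 scalings therefore cannot show whether the region differences were mostly downward. With centring and with quantile normalization alike, 15 of the genes examined were called higher in hippocampus and 5 lower. Gpx8, singled out after its values were seen, was higher in hippocampus on each scale, by 0.89 ± 0.141 (SE) when centred, 0.94 after quantile normalization and 0.26 as deposited, the last with a limma adjusted p of 0.082.

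The cell content of the tissue pieces also differed between regions. Of 12 choroid plexus markers, 12 were called higher in hippocampus (median 2.14), as were 12 of 12 hippocampal neuron markers (median 1.78). Ependymal markers were called higher for 7 of 8 (median 0.56), and fibroblast and meningeal markers for 5 of 8 (median 0.27). Striatal neuron markers were called lower for 10 of 10 (median -1.97) and cortical neuron markers for 9 of 10 (median -1.21). Each tissue thus carried the neuron markers of its label, and the cortex pieces carried striatal neuron markers besides. As deposited, the mean signal of the striatal list was 10.436 in Ts1Cje cortex and 10.277 in WT cortex. In hippocampus it was 7.563 and 7.528. The part of any of these cells in the region differences of the 38 genes was not tested.

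**Figure D5:**
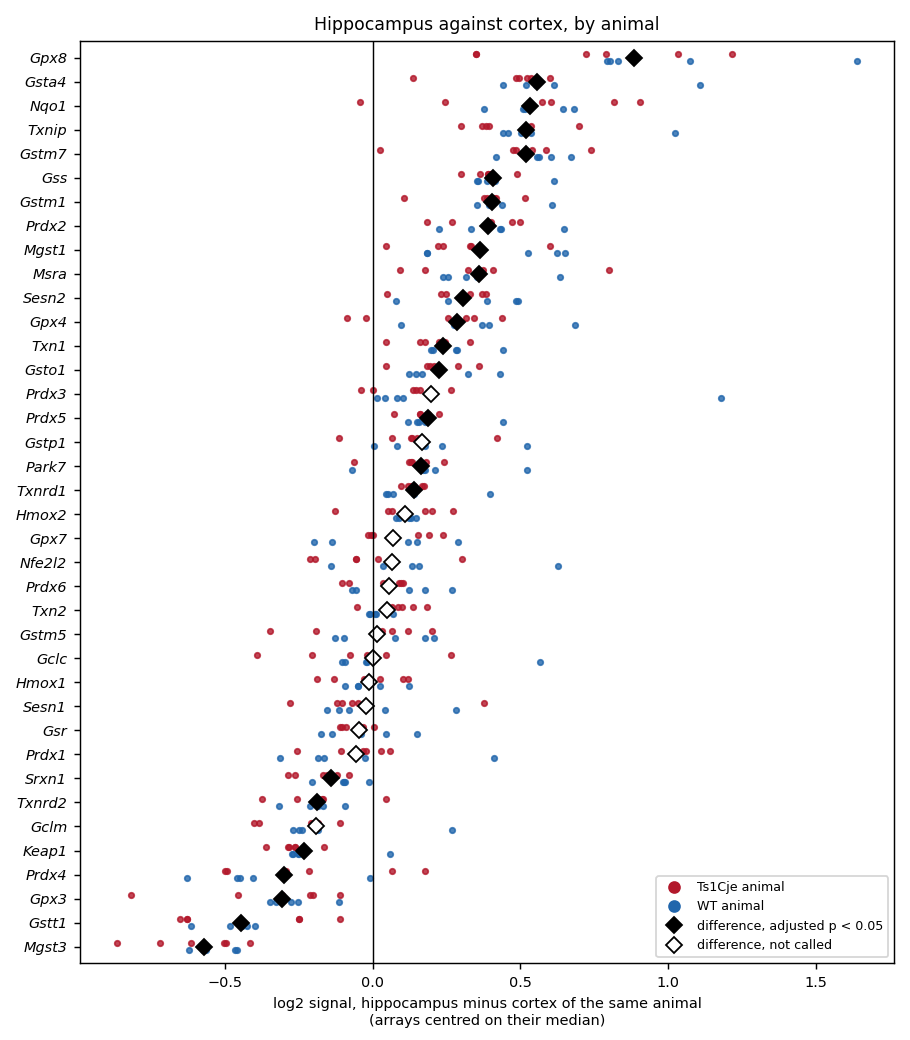
Difference of centred log2 signal, hippocampus minus cortex of the same animal, for the 38 genes (rows, sorted), with each Ts1Cje animal in red, each WT animal in blue and the limma estimate as a diamond, filled where the adjusted p is under 0.05. Gpx8 stands at 0.89 at the top and Mgst3 at -0.57 at the bottom, and the genotypes intermix in the rows.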

How the data were processed

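Whole transcriptomes were measured on Affymetrix mouse gene ST arrays, 22 arrays from 11 animals. Per the submitters' processing notes the authors used RMA, and the deposited values are log2 signals for 21225 features. The RMA version, and whether cortex and hippocampus arrays were normalized in 1 run, could not be read from the labels. Of the features, 20239 had a platform symbol, 529 were named through their Entrez number in RefSeq (GRCm38.p6; Prdx5 and Prdx6 among them), and 457 had no name. The 20768 named genes were fitted with limma 3.58.1 in R 4.3.3 (lmFit, eBayes, two-sided, Benjamini-Hochberg over all of them, called at adjusted p under 0.05), by genotype within each region, in the mean of both regions per animal, for the difference between regions, and by region on median-centred arrays. The steps were tested on simulated data, and the number of arrays limits the precision. Labels pair the arrays of an animal, and after group means were removed these correlated at r of 0.053 to 0.762 (median 0.264). For 2 arrays the title gives animal 60 and the description 61, and the title was used.

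The genes in full were the 6 with the lowest p in each genotype comparison, with 8 NRF2 genes always given, up to 5 on each side for the region difference, 3 for the difference between regions, and up to 2 per related list. Slc7a11, G6pdx, Cat and, between regions, Gpx8 were picked outside this rule after their values were seen. The members, lists and tests were chosen with earlier results of these data known. The alternatives were another prior, array weights, quantile normalization, centred arrays, dim genes left out, all features, a looser threshold, animals left out, 1 fit on 22 arrays and the animal as a replicate block.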

Additional observations from a re-analysis of the deposited data

Results flagged for a closer look

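In 80 groups of arrays (a gene or the mean of the 38 genes, in 1 genotype and region), 20 held a value far from the others by Dixon's test, where chance alone flags about 1 in 20. Of the 20, 12 were arrays of WT animal 60 and 7 were arrays of Ts1Cje animal 64. The arrays of both animals had a narrower spread of signals over all features, so their values are not read as particular to these genes.

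In Ts1Cje cortex, animal 64 stood low for Nfe2l2 at 8.257 (others 8.874 to 9.149), Gclc at 9.539 (10.139 to 10.359) and Gclm at 9.659 (10.096 to 10.342), and high for Sod1 at 12.574 (12.036 to 12.168). Keap1 was low in Ts1Cje animal 63 at 8.451 (others 8.550 to 8.586). In WT cortex, animal 60 stood low for the mean of the 38 genes at 8.816 (others 9.064 to 9.105), Prdx2 at 10.094 (10.318 to 10.363), Keap1 at 8.390 (8.549 to 8.572), Gclc at 9.375 (10.121 to 10.277), Gclm at 9.358 (10.090 to 10.165), Bach1 at 7.363 (7.889 to 7.994) and Cbr1 at 8.831 (9.293 to 9.369), and high for Sod1 at 12.183 (11.278 to 11.499).

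In Ts1Cje hippocampus, animal 64 stood low for Nfe2l2 at 7.940 (others 8.172 to 8.304) and Gclm at 8.655 (9.304 to 9.418), and high for Sod1 at 12.118 (11.758 to 11.837). In WT hippocampus, animal 60 stood high for Hmox1 at 6.451 (others 6.314 to 6.325) and Sod1 at 11.524 (10.969 to 11.061), and low for Gclm at 8.975 (9.287 to 9.307) and Bach1 at 6.994 (7.210 to 7.282). The same genes, Gclm and Sod1, were thus flagged in both regions of both animals.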

How the results depend on the processing

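No alternative called any of the 38 genes between genotypes, in either region, in their mean or for the difference between regions, leaving out any 1 animal included. All of these fits share the limit set by 5 and 6 animals. The count of genes with an unadjusted limma p under 0.05 moved in cortex (0 as reported) to 1 with a trend and robust prior and with quantile normalization, and to 2 with array weights and with 1 fit on all 22 arrays. In hippocampus (1 as reported) it moved to 0 with the trend and robust prior, quantile normalization and the fit on all 22 arrays, and to 3 with array weights. Leaving out 1 animal gave 0 to 1 in cortex and 0 to 2 in hippocampus. The share of all genes under that threshold in each alternative is not given here, so these moves are not read as particular to the 38 genes. Labels pair the arrays by animal, and with the random replicate block (consensus correlation 0.437) the fit on all 22 arrays gave 2 in cortex and 0 in hippocampus, the difference between regions called 0 genes with a random and with a fixed replicate block, and the region difference called 28 genes, against 24 without it. Without animals 60 and 64 the region difference called 30, and leaving out 1 animal gave 23 to 27. These counts stand without the share of all genes called in each fit.

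Over the whole array the genes called in cortex, hippocampus and the mean were 1, 23 and 11 as reported, 48, 54 and 67 with array weights, and 32, 37 and 52 without animals 60 and 64. Leaving out 1 animal gave 1 to 7, 1 to 35 and 1 to 33 genes. In hippocampus 1 gene was left without any 1 of animals 61, 62, 65, 87, 97 and 98, and 35 without animal 64. Sod1 was called in cortex with array weights, without animals 60 and 64 and with the random replicate block, and in hippocampus under each alternative but the 9 single animals named in the results; this check of Sod1, and the counts of related, marker and motif lists without animals 60 and 64, were chosen after seeing the data.

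Differences near 0 changed sign. In cortex, Keap1 was -0.0045 with array weights, -0.0077 with quantile normalization and -0.0144 without animals 60 and 64. Gclc was -0.0021 and Srxn1 -0.0033 with array weights, Srxn1 -0.0248 and Txnrd1 -0.0232 with quantile normalization, and Txnrd1 -0.0042 without animals 60 and 64. In hippocampus, Hmox1 was 0.0272 with array weights, 0.0109 centred and 0.0450 without animals 60 and 64, and Txnrd1 was 0.0235, 0.0022 and 0.0235 with array weights, quantile normalization and without animals 60 and 64. In the mean of regions, Gclc was -0.0319 and -0.0231, and Txnrd1 0.0138 and 0.0097, with array weights and without animals 60 and 64. The cause of these changes was not tested.

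Leaving out 1 animal at a time gave these ranges for genes that changed sign. In cortex, Keap1 -0.0129 to 0.0386, Gclc -0.0853 to 0.1959, Gclm -0.0102 to 0.2421, Srxn1 -0.0069 to 0.0284, Txnrd1 -0.0360 to 0.0399. In hippocampus, Nfe2l2 -0.0812 to 0.0199, Hmox1 -0.0335 to 0.0207, Gclm -0.0559 to 0.1271, Txnrd1 -0.0334 to 0.0122. In the mean of both regions, Nfe2l2 -0.0253 to 0.1653, Hmox1 -0.0119 to 0.0245, Gclc -0.1036 to 0.0843, Gclm -0.0330 to 0.1846, Txnrd1 -0.0270 to 0.0261.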
